A study of Mus musculus with 11 samples.

Results

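The genes described here are 34 imprinted genes of the mouse, taken from 23288 different gene symbols in the expression table of the series. They were chosen by name from textbook lists of imprinted loci, with earlier results of these data known, and all 34 were present in the table. By position they fall into 6 clusters, named after Igf2-H19, Kcnq1, Dlk1-Meg3, Peg10-Sgce, Peg3 and Snrpn, and 9 genes that stand alone. The study asked what CBX6, a chromodomain subunit of Polycomb repressive complex 1 (PRC1), binds and controls in embryonic stem cells (ESCs). All samples came from E14Tg2A, an established mouse ESC line, grown without feeders on gelatin in medium with serum and leukemia inhibitory factor. RNA-seq covered 2 libraries of ESCs infected with a lentivirus carrying a control short hairpin RNA (shCtl) and 2 libraries with a hairpin against Cbx6 (shCbx6). ChIP-seq gave 4 peak lists, 2 replicates of an anti-HA ChIP in ESCs with a 3×HA tag on endogenous CBX6, 1 CBX7 ChIP and 1 RING1B ChIP. The tagged ESCs came from sorted single-cell clones, and the sources used here do not say which Cbx6 hairpin each library carried. Control ChIPs with anti-HA in untagged cells or with IgG were not analysed here.

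At an imprinted gene, DNA methylation set in the egg or the sperm leads to expression mainly from the maternal or the paternal copy, and neighbouring imprinted genes often share 1 control region. Many of these genes act on fetal and placental growth. PRC1, whose canonical form contains RING1A or RING1B and a CBX protein, is usually found at promoters rich in CpG, including those of developmental genes that are silent in ESCs. None of the values below separates the parental copies, and in bulk RNA fewer cells that express a gene cannot be told apart from less RNA per cell.

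Expression is given in FPKM as the authors deposited it, a count of fragments scaled to the length of the transcript and the depth of the library. Because FPKM is scaled to transcript length, levels of different genes can be compared. Between 11116 and 11325 genes reached 1 FPKM in each library. Cbx6 itself stood at 17.4 and 14.9 FPKM in shCtl and at 9.53 and 5.40 FPKM in shCbx6, a 2.16-fold lower mean, and its log2 fold change of -1.06 (SE 0.263) had an adjusted p of 0.247 in limma. Without shCbx6 replicate 1 the value was -1.42 with an adjusted p of 0.0296, and without shCbx6 replicate 2 it was -0.70 with an adjusted p of 0.375. Of 9 ESC markers, 7 were lower in both shCbx6 libraries, and their summed level was 7735 and 8840 FPKM in shCtl against 7090 and 6052 FPKM in shCbx6. More of this sum came from Dppa5a than from the other 8 together, at 4580 and 5397 FPKM in shCtl against 4544 and 3601 FPKM after knockdown. Of all genes, 16.5% were higher and 16.1% lower in both shCbx6 libraries, which is the background for these marker counts, and among genes whose mean in the controls reached 1 FPKM the shares were 17.0% and 25.3%. Of 8 trophectoderm markers, 6 were higher in both shCbx6 libraries, with sums of 13.5 and 17.9 FPKM against 34.7 and 254 FPKM. Most of the last sum was Krt8 at 118.8 FPKM and Krt18 at 122.2 FPKM in shCbx6 replicate 2. Tfap2c stood at 2.84 and 2.21 FPKM in shCtl and at 7.41 and 9.04 FPKM in shCbx6. Hand1, Cdx2 and Elf5 were the remaining higher ones, reaching 1.80, 0.511 and 0.0533 FPKM in shCbx6 replicate 2. Eomes overlapped between groups, and the trophoblast gene Tpbpa was listed at 0 in all 4 libraries. Of 8 primitive endoderm markers 3 were higher and 3 lower in both shCbx6 libraries, and their sum was 8.25 FPKM in shCbx6 replicate 2 and between 3.23 and 6.19 FPKM in the other libraries. Most of that 8.25 FPKM was Col4a1 (5.52 FPKM) and Dab2 (1.67 FPKM), while Sox7, Pdgfra and Foxa2 were the 3 lower ones. Of 5 mesoderm markers 3 were higher, T among them at 0.446 and 0.771 FPKM against 0.0984 and 0.0324 FPKM, and 1 was lower, with sums under 1 FPKM in both shCtl libraries and at 1.11 and 1.61 FPKM in the shCbx6 libraries. Of 8 fibroblast markers Col1a1, Col1a2, Col3a1 and Dcn were higher in both shCbx6 libraries, none above 0.549 FPKM. Fn1 and Vim, which made up most of the fibroblast sums, were lower in both, and the sums were at 209.2 and 173.5 FPKM in shCtl against 164.2 and 138.9 FPKM after knockdown.

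To see which start sites the peak calls bear on, 300-base regions from 250 bases before to 50 bases after each RefSeq start were taken from the RefSeq promoter table (GRCm38.p6) and placed on mm9, the build of the peaks, by exact match. Regions were found for 29 of the 34 genes, 46 regions in all, and each matched 1 place. H19, Kcnq1, Impact, Peg10 and Sgce had none. The first set shows why Igf2 was treated by start site: the most upstream start lies outside every peak and a downstream start lies inside peaks of all 4 lists. Each CpG is in capitals, and each sequence reads 5′ to 3′ on the strand of the gene.
Igf2, most upstream start, chr7:149852672-149852971, minus strand: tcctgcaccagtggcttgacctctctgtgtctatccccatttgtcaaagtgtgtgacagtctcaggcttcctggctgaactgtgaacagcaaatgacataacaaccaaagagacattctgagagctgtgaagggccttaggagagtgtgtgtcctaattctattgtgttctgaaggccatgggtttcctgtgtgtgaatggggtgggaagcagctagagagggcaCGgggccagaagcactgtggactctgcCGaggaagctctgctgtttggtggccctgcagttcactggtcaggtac
Igf2, downstream start, chr7:149844660-149844959, minus strand: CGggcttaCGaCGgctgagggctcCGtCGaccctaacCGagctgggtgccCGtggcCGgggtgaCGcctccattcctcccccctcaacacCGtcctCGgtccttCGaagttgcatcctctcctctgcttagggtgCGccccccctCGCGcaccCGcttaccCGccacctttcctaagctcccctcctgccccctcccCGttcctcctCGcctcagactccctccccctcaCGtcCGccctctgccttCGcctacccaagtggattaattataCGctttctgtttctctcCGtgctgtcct
The upstream region holds 2 CpG and the downstream region holds 24. The other Igf2 start regions, chr7:149847127-149847426 with 14 CpG and chr7:149843352-149843651 with 7 CpG, also lie under CBX7 and RING1B peaks.

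The second set compares start regions inside and outside CBX7 and RING1B peaks at other loci. Grb10, Ndn and Dlk1 are under such peaks, and the start regions of the long non-coding RNAs Meg3 and Kcnq1ot1 are under none of the 4 lists.
Grb10, upstream start, chr11:11937374-11937673, minus strand: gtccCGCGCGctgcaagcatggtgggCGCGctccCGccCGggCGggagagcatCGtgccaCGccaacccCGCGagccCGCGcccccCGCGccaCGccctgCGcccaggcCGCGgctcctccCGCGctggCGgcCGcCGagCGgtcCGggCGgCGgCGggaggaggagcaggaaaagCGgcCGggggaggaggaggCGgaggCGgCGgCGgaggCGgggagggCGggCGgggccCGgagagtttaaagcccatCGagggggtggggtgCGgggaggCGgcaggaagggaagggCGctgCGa
Ndn, chr7:69492913-69493212, plus strand: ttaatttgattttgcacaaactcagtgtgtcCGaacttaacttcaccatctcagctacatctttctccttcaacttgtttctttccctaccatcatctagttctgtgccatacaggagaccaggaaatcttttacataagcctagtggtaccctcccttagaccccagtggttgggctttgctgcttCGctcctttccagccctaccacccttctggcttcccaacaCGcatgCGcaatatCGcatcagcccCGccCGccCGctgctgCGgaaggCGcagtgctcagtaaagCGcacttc
Dlk1, chr12:110690783-110691082, plus strand: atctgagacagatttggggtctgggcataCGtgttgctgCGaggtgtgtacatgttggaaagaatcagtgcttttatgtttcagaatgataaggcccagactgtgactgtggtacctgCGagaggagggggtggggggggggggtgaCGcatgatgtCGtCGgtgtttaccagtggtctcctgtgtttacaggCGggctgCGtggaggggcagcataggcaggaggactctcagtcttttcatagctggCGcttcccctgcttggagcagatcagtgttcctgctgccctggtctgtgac
Meg3, upstream start, chr12:110778956-110779255, plus strand: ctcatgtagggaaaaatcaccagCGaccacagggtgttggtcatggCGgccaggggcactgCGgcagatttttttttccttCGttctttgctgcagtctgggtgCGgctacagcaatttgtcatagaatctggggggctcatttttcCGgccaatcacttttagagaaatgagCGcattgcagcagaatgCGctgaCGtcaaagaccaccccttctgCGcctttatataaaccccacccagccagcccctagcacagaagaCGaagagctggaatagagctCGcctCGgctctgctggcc
Kcnq1ot1, chr7:150482403-150482702, minus strand: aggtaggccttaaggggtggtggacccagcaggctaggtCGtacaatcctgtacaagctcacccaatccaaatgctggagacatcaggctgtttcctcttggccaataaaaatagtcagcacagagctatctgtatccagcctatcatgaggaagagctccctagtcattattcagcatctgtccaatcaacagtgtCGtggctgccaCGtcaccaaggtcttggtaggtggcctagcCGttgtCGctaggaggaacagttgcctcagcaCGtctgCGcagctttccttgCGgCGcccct
These regions hold 45 CpG at Grb10, 11 at Ndn, 9 at Dlk1, 13 at Meg3 and 9 at Kcnq1ot1. Over the 46 member regions the median was 13.5 CpG, against 7 over all 32851 RefSeq start regions. It was 21 CpG in the 21 regions, of 13 genes, under a CBX7 or RING1B peak and 9 CpG in the 25 regions, of 18 genes, under neither. Dlk1 and Ndn had no more CpG than many regions outside peaks. Several regions of 1 gene overlap, as at Mest and Gnas, so they are not independent.

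The start regions were also searched for TGCCGC, the motif that the imprint-protecting zinc finger protein ZFP57 binds when it is methylated, on both strands. It occurred in 11 of 46 member regions (23.9%) and in 11.6% of all start regions. The matches lay in regions of Nnat, Mest, Nap1l5, Zim1, Snrpn, Igf2, Osbpl5, Plagl1, Grb10 and Meg3. Each match includes 1 CpG. Of the 21 regions under a CBX7 or RING1B peak 4 held the motif, and of the 25 under neither 7 did.

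Peaks were assigned to a gene when they touched the span from 2.5 kb before its start to its end. Coordinates were found for 33 members, all but Kcnq1ot1, which lies inside Kcnq1 on the opposite strand. CBX6 replicate 1 had a peak at 23 of the 33 genes (69.7%), CBX6 replicate 2 at 11 (33.3%), CBX7 at 14 (42.4%) and RING1B at 17 (51.5%). Over all 21921 genes with coordinates the shares were 56.9% for CBX6 replicate 1, 16.6% for CBX6 replicate 2, 17.9% for CBX7 and 16.1% for RING1B. The members' windows were longer, with a median of 23197 bp against 18561 bp. In windows of 2.5 kb on either side of a start site the counts of members were again 23, 11, 14 and 17 in the same order of lists, and the shares of all genes were 54.0%, 15.5%, 17.0% and 15.3%. Each peak has the authors' MACS score, which depends on the depth and enrichment of its library, so scores were compared only within a list.

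The 4 lists divided the members into separate sets. All 4 lists had a peak at Igf2, Kcnq1, Phlda2, Ascl2, Dlk1, Peg12, Igf2r, Grb10 and Gnas, which are 9 of 33 members, and at 11.49% of all genes. Peg10 and Sgce shared 1 peak of CBX6 replicate 2, CBX7 and RING1B (this set held 1.15% of all genes), and Ndn and Magel2 had CBX7 and RING1B peaks without CBX6 (0.59%). Osbpl5 had peaks of CBX6 replicate 1, CBX7 and RING1B (1.37%), and Ppp1r9a, Mest and Plagl1 had peaks of CBX6 replicate 1 and RING1B (0.79%). Only CBX6 replicate 1 had a peak at 10 members, among them Snrpn, Peg3, Cd81 and Impact, a pattern seen at 38.1% of all genes. No list had a peak in the windows of H19, Meg3, Rian, Asb4, Usp29 or Nap1l5, as the GENCODE gene models place them, which are 6 of 33 members, against 40.08% of all genes without a peak. The RefSeq start of Usp29 lies elsewhere, with a CBX6 replicate 1 peak within 2.5 kb. The 2 CBX6 replicates are lists of very unequal length, 21865 and 5103 peaks. When a replicate 1 peak had to overlap one of replicate 2, 9 members remained, the same 9 that had a peak in all 4 lists. The share of all genes was not taken under this rule.

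**Figure D1:**
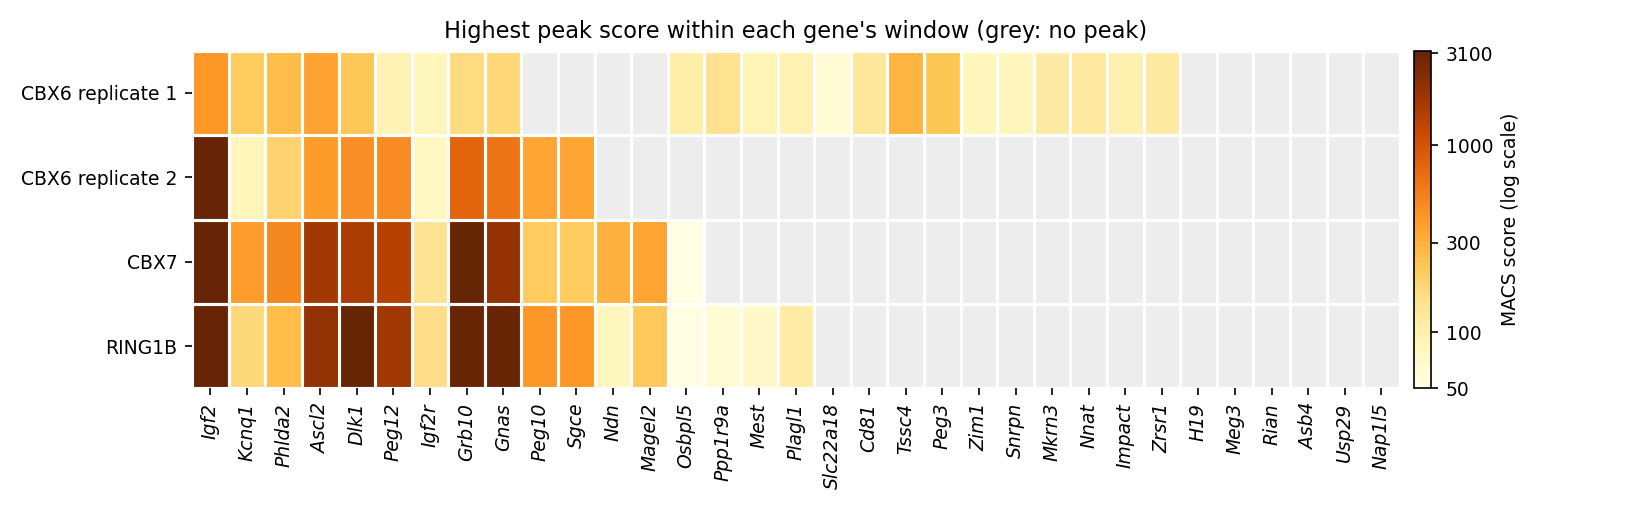
Highest MACS score of a peak in the window of each of the 33 placed members (columns) in each of the 4 lists (rows), on a logarithmic colour scale with grey for no peak. Igf2 and Grb10 are dark in CBX7 and RING1B, and from Slc22a18 to Zrsr1 only CBX6 replicate 1 has peaks.

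Several members lay under wide peaks. At Igf2 (chr7:149836673-149852721, minus strand), the CBX7 peak chr7:149843493-149851101 was 7609 bp wide and the RING1B peak chr7:149843350-149851308 was 7959 bp wide, wider than 96.4% and 96.1% of the peaks in their lists. Both had a score of 3100, a value that recurs at 403 CBX7 and 507 RING1B peaks, so it does not rank them. CBX6 replicate 2 had a 5406 bp peak there, also with a score of 3100, and CBX6 replicate 1 a 4366 bp peak with a score of 402.9, above 98.5% of its list.

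At Grb10 (chr11:11830511-11938686, minus strand), CBX7 covered chr11:11934251-11940210 with a score of 3196 and RING1B covered chr11:11934127-11940270 with a score of 3100, both across the upstream start. The highest CBX6 replicate 2 score at Grb10 was 785.1. At Gnas (chr2:174109821-174172245, plus strand), all 4 lists had peaks at 3 places, CBX6 replicate 1 had a further one at chr2:174121061-174122405 that no other list shared, and in 3 lists the highest score lay at the most downstream of them, 628.5 for CBX6 replicate 2, 2014 for CBX7 and 3100 for RING1B. At Dlk1 (chr12:110691033-110701546, plus strand), RING1B scored 3176 and CBX7 1570 over the start, and both lists had a further peak upstream of it and another inside the gene, over an internal start.

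**Figure D2:**
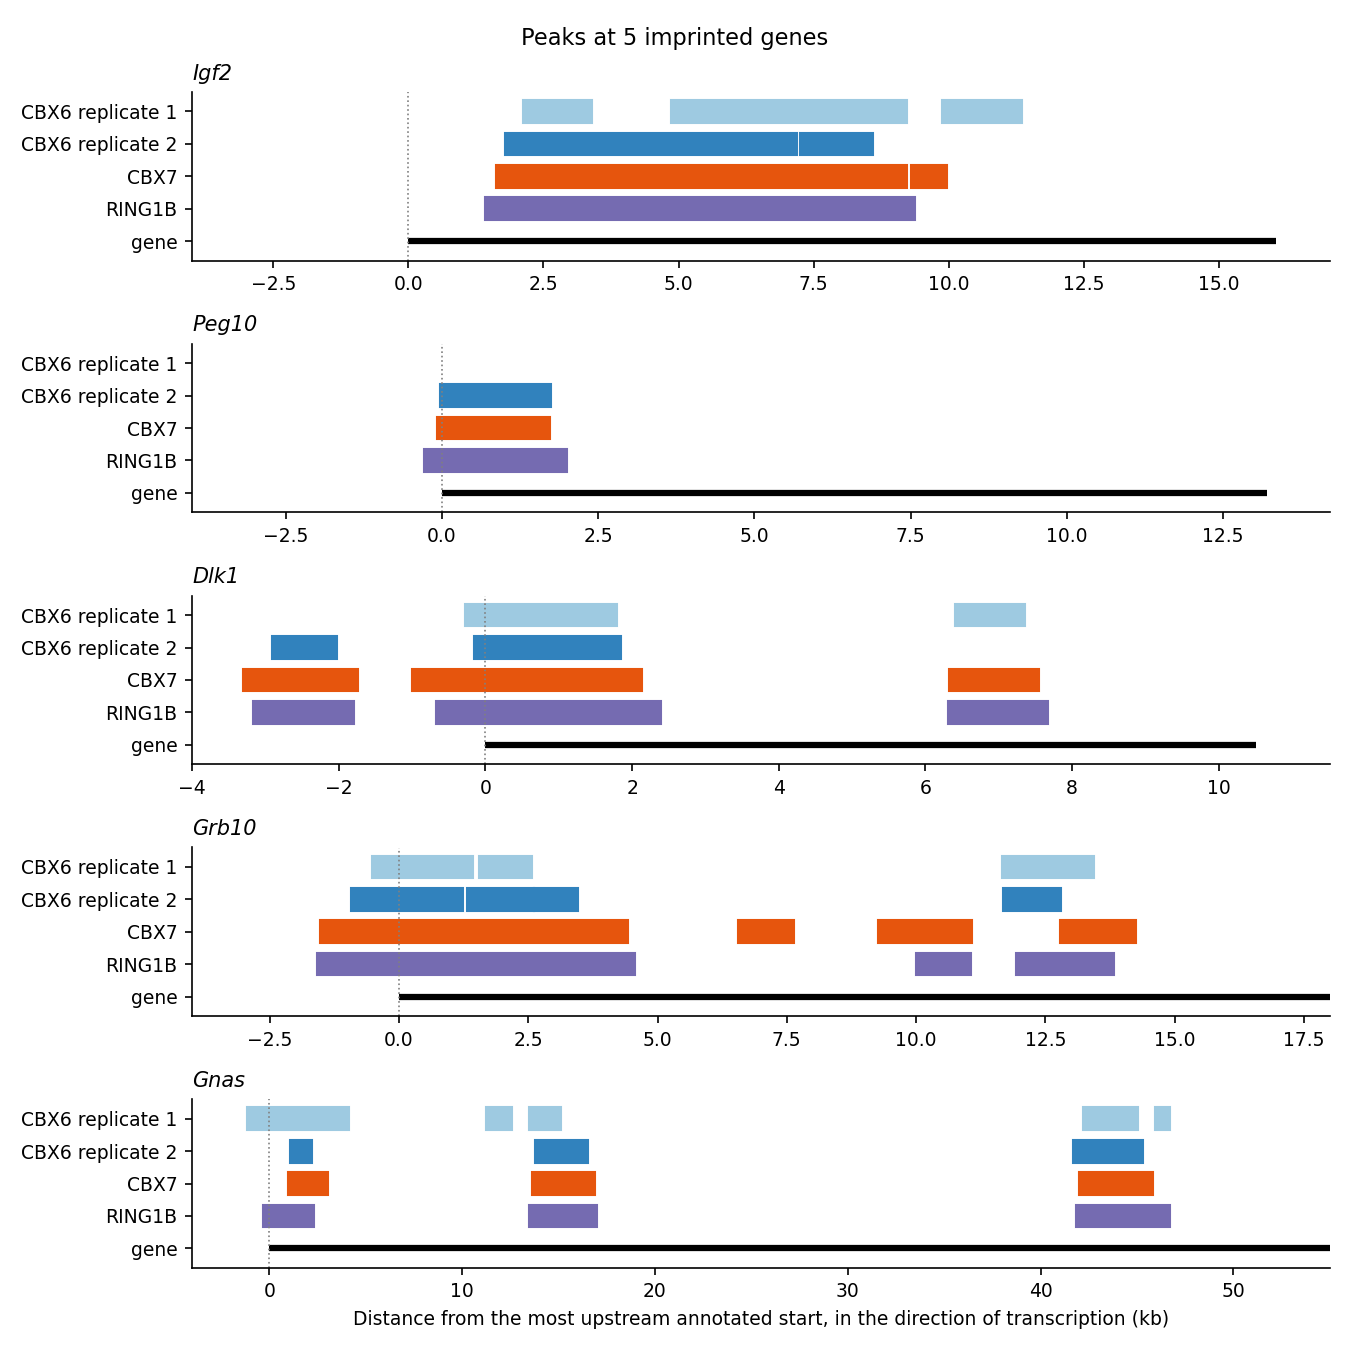
Position of peaks in the 4 lists at Igf2, Peg10, Dlk1, Grb10 and Gnas, in kb from the most upstream annotated start and in the direction of transcription, with the gene as a black line (Grb10 and Gnas are cut off at the right). At Igf2 the peaks begin downstream of the most upstream start, at Peg10 CBX6 replicate 1 has none, and at Gnas all 4 lists have peaks at 3 places, with a further one in CBX6 replicate 1 alone.

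Ascl2 and Peg12 had CBX7 scores of 1700 and 1412 and RING1B scores of 2049 and 1743 over the gene. Phlda2, Kcnq1 and Igf2r had CBX7 scores of 490.3, 380.2 and 141.3 and RING1B scores of 255.0, 167.6 and 152.5, each over a start. The peak shared by Peg10 and Sgce covered the Peg10 start in all 3 lists and, in RING1B, a start of Sgce as well, with its centre in an intron of Peg10. It lay at chr6:4697267-4699044 with a score of 344.1 in CBX6 replicate 2, with scores of 209.3 in CBX7 and 407.1 in RING1B. Ndn and Magel2 had CBX7 scores of 297.3 and 346.2 and RING1B scores of 80.41 and 218.4. Osbpl5 had weak peaks that lay apart, 51.31 in CBX7 at an internal start and 51.00 in RING1B at the upstream start. RING1B scores at Ppp1r9a, Mest and Plagl1 were 63.40, 70.36 and 112.5, and the Mest peak covered no start.

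The expression of the members spanned a wide range in both groups. In shCtl the highest means were those of Gnas (119.1 FPKM), Phlda2 (112.7 FPKM), Grb10 (67.7 FPKM) and Cd81 (65.2 FPKM), and 15 members had a mean under 1 FPKM. Gnas encodes the stimulatory G protein alpha subunit and stood at 116.1 and 122.1 FPKM in shCtl and at 108.3 and 119.6 FPKM in shCbx6. Phlda2, which restrains placental growth, stood at 94.8 and 130.7 FPKM in shCtl and at 99.1 and 118.2 FPKM in shCbx6. The groups overlapped for both genes. In shCtl the Phlda2 values lay on either side of those of Gnas, so the order of these genes was not separated by the spread between libraries. The 17 members with a CBX7 or RING1B peak had a median shCtl mean of 0.904 FPKM and a range from 0.0424 to 119 FPKM, and 9 of them were under 1 FPKM. Grb10 and Gnas were thus among the most abundant members while carrying wide peaks. The 10 members with a peak of CBX6 replicate 1 alone had a median of 3.19 FPKM, and the 6 with no peak ranged from 0.0243 to 61.1 FPKM.

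**Figure D3:**
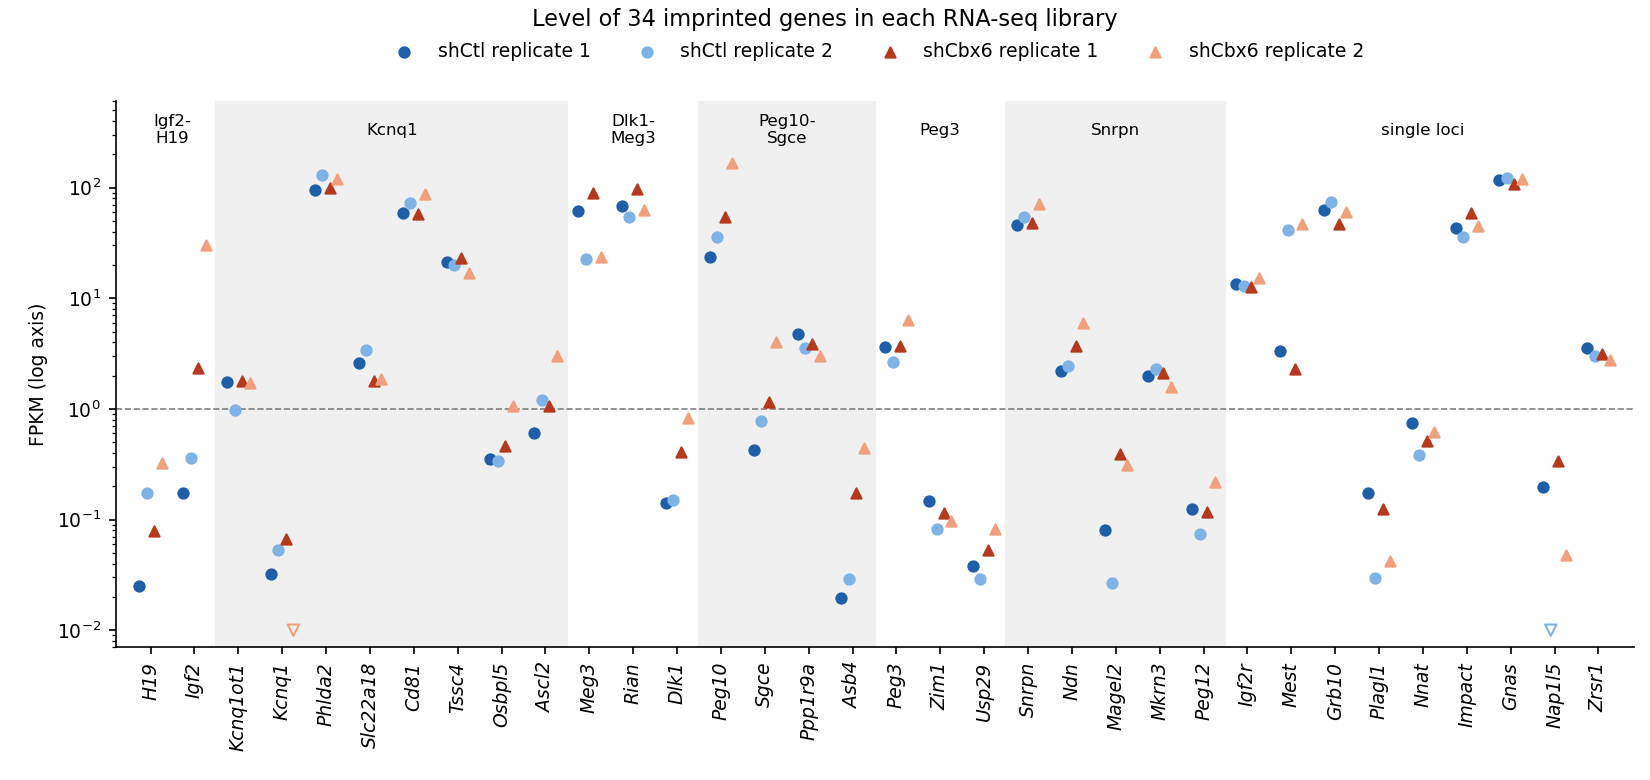
FPKM of the 34 imprinted genes in the 4 libraries on a logarithmic axis, grouped by cluster, with circles for shCtl, triangles for shCbx6, open triangles at the bottom for values listed at 0 and a dashed line at 1 FPKM. Igf2, Peg10 and Sgce are highest in shCbx6 replicate 2, and Mest differs between replicates 1 and 2 in both groups.

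The comparison of shCbx6 with shCtl asked whether loss of Cbx6 RNA went with a different level of these genes. It used the 22 members whose mean reached 1 FPKM in shCtl or shCbx6, together with all 11592 genes that met this filter, in limma on log2(FPKM + 1). None of the 22 members had an adjusted p under 0.05, where 11 genes in all did (0.0949%). At an unadjusted p under 0.05 there were 4 of 22 members, Igf2, Peg10, Ndn and Slc22a18, and 1352 of 11592 genes. The median log2 fold change was 0.18 over the 22 members and -0.01 over all genes tested. Igf2, Sgce and Ascl2 met the filter only through shCbx6, where they were higher, so they could enter only as higher. Over the 19 members that reached a mean of 1 FPKM in shCtl the median was 0.08.

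By the ratio of group means, 6 of the 22 members were at least 1.5-fold higher in shCbx6, where 7.63% of all tested genes were, and 1 was at least 1.5-fold lower, where 6.56% were. Because Igf2, Sgce and Ascl2 could enter only as higher, the same counts were taken over the 19 members whose shCtl mean reached 1 FPKM, where 3 were higher and 1 was lower. Over all 11172 genes with such a mean 4.97% were higher and 6.81% lower. The higher ones were Igf2, Sgce, Peg10, Ascl2, Ndn and Peg3, and the lower one was Slc22a18. Without shCbx6 replicate 2, Ascl2 and Peg3 were no longer at least 1.5-fold higher, while Impact, Meg3 and Rian were. The share of all genes was not taken in this setting. With all libraries, groups did not overlap for 5 of the 6, all but Ascl2, with 6.36% of all tested genes in this class, and for Slc22a18, with 5.92%. Without any filter on level, 11 of 34 members (32.4%) were higher in both shCbx6 libraries than in both shCtl libraries, against 16.5% of all 23288 genes, and 2 of 34 (5.88%), Grb10 and Slc22a18, were lower in both, against 16.1%. Of the 11, Asb4, Dlk1, Magel2, Osbpl5 and Usp29 had means under 1 FPKM in both groups. Among the 19 members whose shCtl mean reached 1 FPKM, 4 (21.1%) were higher in both and 2 (10.5%) lower in both, against 17.0% and 25.3% of all genes with such a mean. When libraries were scaled by their median ratio or by quantiles, Impact was no longer among the higher genes and Gnas joined the lower ones, which gave 10 and 3. Over all genes the shares were then 18.7% and 15.6% higher and 15.2% and 20.3% lower, in the order of these scalings. Impact, a regulator of the kinase GCN2, stood at 43.0 and 35.8 FPKM in shCtl and at 59.4 and 44.8 FPKM in shCbx6.

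Igf2 encodes insulin-like growth factor 2, a fetal growth factor, and is usually expressed from the paternal copy. Its level was 0.173 and 0.359 FPKM in shCtl against 2.35 and 30.5 FPKM in shCbx6. Both shCbx6 libraries were above both controls, and they differed from each other 13-fold. The ratio of means was 61.7, the log2 fold change was 3.02 (SE 1.01), and the adjusted p in limma was 0.35. Without shCbx6 replicate 2 the log2 fold change was 1.41 with an adjusted p of 0.13, and without shCbx6 replicate 1 it was 4.64 with an adjusted p of 0.000831. Within replicate numbers the ratio was 13.6 and 84.9. The library with the highest Igf2 level also had the highest sums of trophectoderm, primitive endoderm and mesoderm markers and the lowest sums of fibroblast and ESC markers. Single markers did not all follow the sum of their list, as Sox7 and Pdgfra were at their lowest and Col1a1, Col1a2, Dcn and Thy1 at their highest in this library, and the part of other cell types in the difference was not tested. H19, the maternally expressed long non-coding RNA next to it, stood at 0.0251 and 0.173 FPKM in shCtl and at 0.0786 and 0.322 FPKM in shCbx6, with overlapping groups.

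In the Peg10-Sgce cluster, Peg10 and Sgce start close together on opposite strands and are both usually paternal. Peg10, a retrotransposon-derived gene needed for the placenta, stood at 23.5 and 35.9 FPKM in shCtl and at 54.1 and 166.7 FPKM in shCbx6. The ratio of means was 3.72, the log2 fold change 1.68 (SE 0.542) and the adjusted p in limma 0.346. Sgce, which encodes epsilon-sarcoglycan, stood at 0.425 and 0.780 FPKM in shCtl and at 1.16 and 4.06 FPKM in shCbx6, a ratio of 4.33 with a log2 fold change of 1.05 (SE 0.426) and an adjusted p of 0.432. For both genes the 2 shCbx6 libraries lay above the controls and replicate 2, the library whose marker sums are set beside Igf2 above, was the higher one. Without shCbx6 replicate 1 the adjusted p was 0.0211 for Peg10 and 0.0249 for Sgce. Without shCbx6 replicate 2 the log2 fold change was 0.87 for Peg10 with an adjusted p of 0.468 and 0.44 for Sgce with an adjusted p of 0.70. Asb4, a substrate adaptor of a ubiquitin ligase, was listed at 0.0196 and 0.0290 FPKM in shCtl and at 0.174 and 0.444 FPKM in shCbx6, under the filter. Ppp1r9a, which encodes the actin-binding protein neurabin, overlapped between groups at 4.77 and 3.55 FPKM against 3.88 and 3.01 FPKM.

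In the Snrpn cluster, Ndn and Magel2 were higher and Snrpn, Mkrn3 and Peg12 overlapped. Ndn, of the MAGE family, stood at 2.21 and 2.43 FPKM in shCtl and at 3.71 and 5.93 FPKM in shCbx6. Its ratio was 2.08, its log2 fold change 0.78 (SE 0.225) and its adjusted p in limma 0.299, while without shCbx6 replicate 1 the adjusted p was 0.049. Without shCbx6 replicate 2 the log2 fold change was 0.50 with an adjusted p of 0.516. Magel2, also of the MAGE family, was under the filter at 0.0813 and 0.0268 FPKM in shCtl against 0.390 and 0.313 FPKM in shCbx6. Snrpn, which encodes a spliceosome protein and shares its transcript with Snurf, was the most abundant gene of the cluster at 46.3 and 54.5 FPKM in shCtl against 47.9 and 71.6 FPKM in shCbx6. Mkrn3, a ubiquitin ligase, stood at 2.00 and 2.29 FPKM against 2.12 and 1.58 FPKM. Peg12 did not exceed 0.220 FPKM in any library.

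In the Peg3 cluster, the zinc finger gene Peg3 stood at 3.59 and 2.66 FPKM in shCtl and at 3.69 and 6.39 FPKM in shCbx6. The ratio was 1.61, the log2 fold change 0.52 (SE 0.265) and the adjusted p in limma 0.532. The groups were barely separated, with shCtl replicate 1 just under shCbx6 replicate 1. Usp29 and Zim1, which lie on either side, did not exceed 0.147 FPKM. The RefSeq start of Usp29 lies beside that of Peg3, although the gene model used for the peaks starts further away.

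Among the genes of the Kcnq1 cluster no common direction was seen. Slc22a18, a membrane transporter that is usually maternal, was the only member at least 1.5-fold lower, with 2.58 and 3.37 FPKM in shCtl against 1.77 and 1.85 FPKM in shCbx6. The mean was 1.64-fold lower, with a log2 fold change of -0.49 (SE 0.178) and an adjusted p of 0.391 in limma. Without shCtl replicate 2 it was no longer past 1.5-fold. Ascl2, a transcription factor of the trophoblast, stood at 0.601 and 1.21 FPKM in shCtl and at 1.05 and 2.99 FPKM in shCbx6, so the groups overlapped at a ratio of 2.24. Kcnq1ot1, the long non-coding RNA that silences the cluster on the paternal copy, stood at 1.76 and 0.974 FPKM in shCtl and at 1.79 and 1.73 FPKM in shCbx6, and Kcnq1, a potassium channel gene on the other strand, did not exceed 0.0671 FPKM. Because the strand setting of the library is not given, reads of these overlapping genes could be exchanged. The tetraspanin gene Cd81 and the spliceosome factor gene Tssc4 overlapped between groups at 58.6 and 71.8 against 58.0 and 88.2 FPKM, and at 21.1 and 19.9 against 23.0 and 16.9 FPKM. Osbpl5, a lipid transfer protein gene, reached 1.07 FPKM in shCbx6 replicate 2 and was between 0.341 and 0.466 FPKM in the other libraries.

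In the Dlk1-Meg3 cluster, the maternally expressed RNAs were abundant and the paternal gene Dlk1 was nearly silent. Rian, which hosts small nucleolar RNAs, stood at 67.9 and 54.2 FPKM in shCtl and at 97.3 and 63.0 FPKM in shCbx6, a ratio of 1.31 with a log2 fold change of 0.36 (SE 0.252) and an adjusted p of 0.654. Meg3 stood at 61.1 and 22.5 FPKM in shCtl and at 89.5 and 23.7 FPKM in shCbx6. Both genes were lower in replicate 2 of each group, and the groups overlapped. Dlk1, a transmembrane protein related to the Notch ligands, was under the filter at 0.141 and 0.151 FPKM in shCtl and at 0.405 and 0.821 FPKM in shCbx6, with both shCbx6 libraries above both controls.

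None of the 6 tested genes that stand alone was past 1.5-fold in either direction. Grb10, an adaptor that restrains insulin receptor signalling, stood at 62.0 and 73.3 FPKM in shCtl and at 47.0 and 60.1 FPKM in shCbx6, a 1.26-fold lower mean with an adjusted p of 0.559 in limma. Igf2r, the receptor that clears IGF2, stood at 13.4 and 12.8 FPKM against 12.7 and 15.3 FPKM. Zrsr1, a retrogene of a splicing factor inside Commd1, stood at 3.52 and 2.98 FPKM against 3.10 and 2.75 FPKM. Plagl1, Nnat and Nap1l5 did not exceed 0.751 FPKM in any library, and Nap1l5 was listed at 0 in shCtl replicate 2. Gnas had a log2 fold change of -0.06 (SE 0.147) and Phlda2, of the Kcnq1 cluster, one of -0.04 (SE 0.212), with adjusted p of 0.912 and 0.970.

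**Figure D4:**
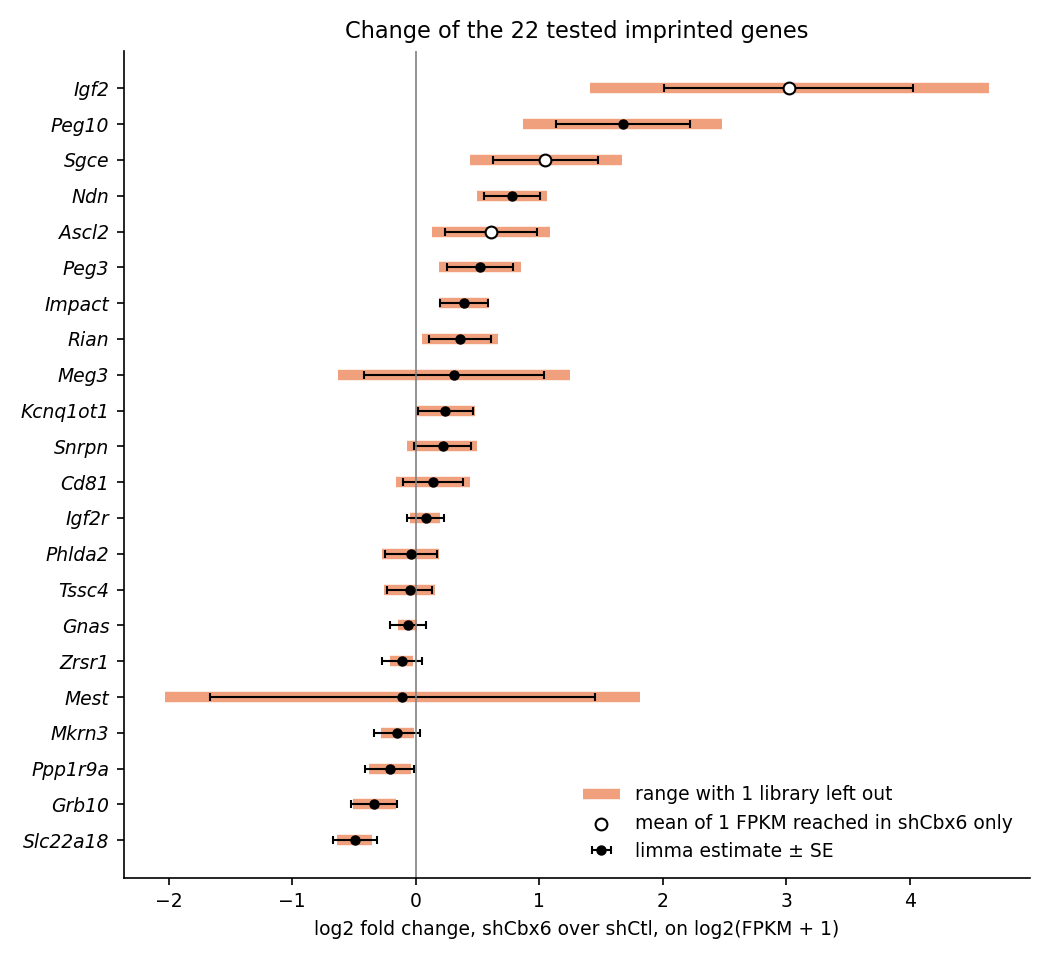
Log2 fold change of shCbx6 over shCtl on log2(FPKM + 1) for the 22 tested imprinted genes, with black points and bars for the limma estimate ± SE, open points for genes that reached a mean of 1 FPKM in shCbx6 only, and orange bars for the range when 1 library is left out. Igf2 is at 3.02 and Slc22a18 at -0.49. The orange bars of Kcnq1ot1, Phlda2, Cd81, Tssc4, Meg3, Snrpn, Igf2r, Mest and Gnas cross 0.

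Mest differed between replicate numbers rather than groups. This paternal gene of the alpha/beta hydrolase fold stood at 3.32 FPKM in replicate 1 and 41.3 FPKM in replicate 2 of shCtl, and at 2.31 FPKM in replicate 1 and 46.6 FPKM in replicate 2 of shCbx6. Replicate 2 was 12.4-fold above replicate 1 in shCtl and 20.1-fold above it in shCbx6. Meg3 went the other way, 2.72-fold and 3.78-fold higher in replicate 1. A difference of at least 2-fold in the same direction in both groups, on log2(FPKM + 1), was found for these 2 of the 22 members and for 0.664% of all tested genes. This measure was chosen after the values were seen. By the smaller of the 2 differences, Mest ranked 9 of 11592 genes and Meg3 42. The labels do not say what the replicate numbers mark. For Mest the difference between groups was therefore small beside that between numbers, with a log2 fold change of -0.11 (SE 1.56).

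**Figure D5:**
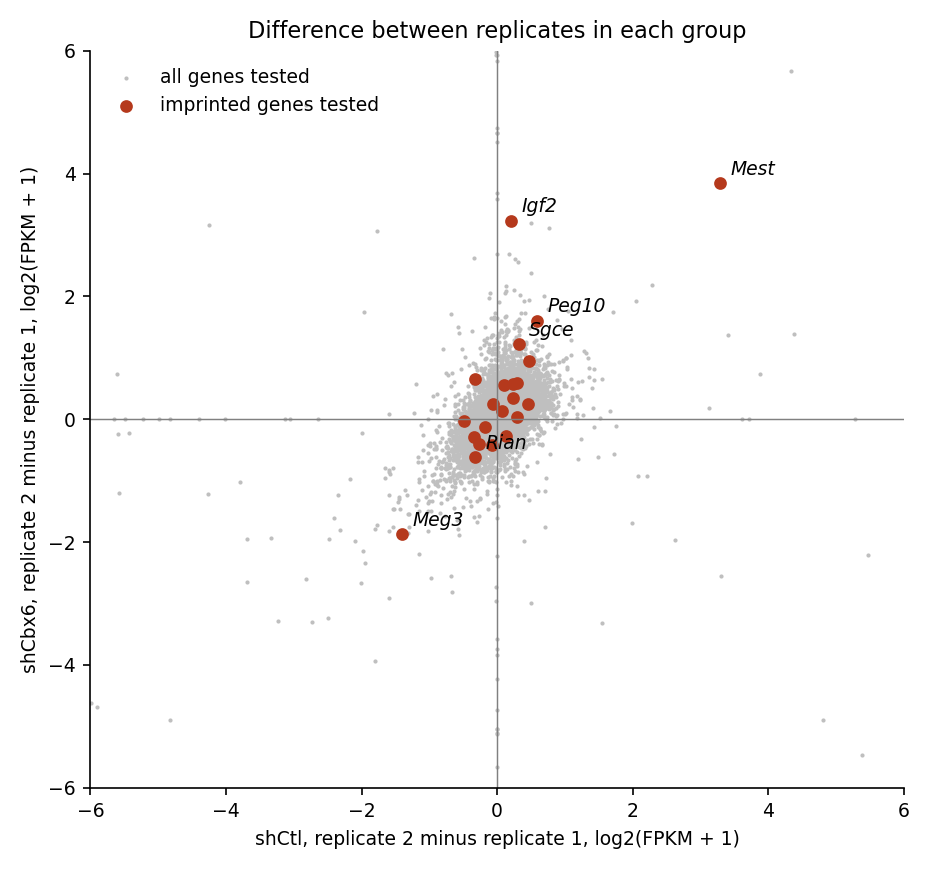
Difference between replicate 2 and replicate 1 on log2(FPKM + 1) in shCtl (horizontal) and in shCbx6 (vertical) for all 11592 tested genes in grey and the 22 imprinted genes in red, on axes that stop at 6 and leave out 33 genes. Mest lies at the upper right and Meg3 at the lower left, while Igf2, Peg10 and Sgce are spread mainly along the vertical axis.

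By the copy that is usually expressed, 9 of 18 paternal genes (50.0%) and 2 of 14 maternal genes (14.3%) were higher in both shCbx6 libraries, against 16.5% of all genes. The paternal Dlk1, Magel2 and Usp29 and both maternal genes, Asb4 and Osbpl5, had means under 1 FPKM in both groups. Among members whose shCtl mean reached 1 FPKM, only Impact, Ndn, Peg10 and Peg3 were higher in both. None of the paternal genes and 1 maternal gene, Slc22a18, was lower in both, against 16.1% of all genes. All 5 of the members past 1.5-fold upward with groups that did not overlap, Igf2, Sgce, Peg10, Ndn and Peg3, are usually paternal. Igf2 and Sgce met the filter only through shCbx6, and without shCbx6 replicate 2 the genes past 1.5-fold upward no longer held Peg3 and held the maternal Meg3 and Rian. The difference between the 2 classes was not tested, the assignment is textbook knowledge and not measured here, and Peg10 and Sgce share a locus.

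Set beside the peaks, Igf2, Ascl2, Peg10, Sgce and Ndn were past 1.5-fold upward among the 9 tested members with a CBX7 peak, and Peg3 was among the 12 without one. Over all tested genes the shares were 25.1% with a CBX7 peak and 4.9% without. Past 1.5-fold downward they were 14.1% and 5.3% for CBX7, and 14.0% and 5.5% for RING1B. Slc22a18, the member past 1.5-fold downward, had neither peak. For RING1B the members past 1.5-fold upward were the same 5 of 11 with a peak and Peg3 of 10 without, with 25.1% and 5.4% over all tested genes. For CBX6 replicate 1 the order was the other way, with 3 of 16 members with a peak past 1.5-fold upward (Igf2, Ascl2 and Peg3) and 3 of 5 without (Peg10, Sgce and Ndn), and 6.8% and 10.3% over all tested genes. For CBX6 replicate 2 it was 4 of 8 with a peak and 2 of 13 without, and 20.7% and 5.6% over all tested genes. As Igf2, Sgce and Ascl2 met the filter only through shCbx6, these counts are given as a description only. Phlda2, Igf2r, Grb10 and Gnas also had CBX7 and RING1B peaks and stayed under 1.5-fold.

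Other imprinted genes were examined in a list of 46, of which 44 were in the table and 22 met the filter. None passed in limma, where the smallest adjusted p was 0.186, and 4 had an unadjusted p under 0.05, as 1352 of all 11592 tested genes did. Past 1.5-fold, 4 were higher and 2 lower, where 7.63% and 6.56% of all tested genes were. Groups did not overlap for Sfmbt2, Atp10a and Pon2 among the higher and Ddc among the lower, where 6.36% and 5.92% of all tested genes were in these classes. Whatever their level, 12 of the 44 (27.3%) were higher in both shCbx6 libraries and 9 (20.5%) lower in both. Over all 23288 genes the shares were 16.5% and 16.1%. Sfmbt2, a Polycomb-related gene of the placenta, stood at 1.87 and 0.737 FPKM in shCtl and at 3.89 and 7.06 FPKM in shCbx6. Atp10a, a phospholipid transporter gene, stood at 1.35 and 0.719 FPKM against 3.31 and 2.99 FPKM, and Pon2, a lactonase gene of the Peg10 region, at 3.34 and 4.06 FPKM against 6.28 and 8.73 FPKM. Ddc, the decarboxylase gene next to Grb10, was lower at 5.40 and 5.77 FPKM against 3.12 and 2.95 FPKM.

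Of 20 genes that set, read or keep imprints, act in imprinted silencing or oxidize methylcytosine, 19 met the filter and none passed in limma. The smallest adjusted p in limma was 0.0732, and 4 genes had an unadjusted p under 0.05, as 1352 of all 11592 tested genes did. Past 1.5-fold, 2 were higher and 2 lower, all with groups that did not overlap, against the same 6.36% and 5.92%. Dppa3, which protects methylation in the early embryo, stood at 2.36 and 2.19 FPKM in shCtl and at 27.0 and 57.1 FPKM in shCbx6, and the DNA methyltransferase gene Dnmt3b at 31.8 and 31.8 FPKM against 90.9 and 191.5 FPKM. Tet2, which encodes an enzyme that oxidizes methylcytosine, was lower at 29.8 and 17.2 FPKM against 10.2 and 4.67 FPKM. Zfp57, named above for its motif, stood at 272.8 and 192.8 FPKM against 175.7 and 102.7 FPKM. DNA methylation was not measured in these samples.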

How the data were processed

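RNA-seq and ChIP-seq of mouse E14Tg2A ESCs were used. The authors aligned RNA reads to mm9 with TopHat and the deposited FPKM per gene symbol came from Cufflinks. For ChIP-seq they kept reads that Bowtie matched to 1 place and ran MACS on each sample. The deposited score is the one MACS gave the authors. Per the labels, DNA of the HA and CBX7 ChIPs came from a kit and that of RING1B from another protocol, so neither scores nor peak numbers can be compared between lists. Unique matching leaves repeats and close copies without peaks. Sample descriptions name 1 FPKM table for each replicate number, and whether these were normalized separately is not given in the sources used here. Depth is unknown, so no counting interval is given. FPKM are relative within a library.

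Of 23290 entries in the table, 25 carry dates in place of symbols; of entries that share a symbol, the more abundant one was kept. Genes whose mean reached 1 FPKM in shCtl or shCbx6 were fitted with limma 3.58.1 (R 4.3.3) on log2(FPKM + 1), using lmFit, eBayes (trend) and no replicate term, with Benjamini-Hochberg adjustment over all 11592 genes. A fold change on this scale understates that of low genes. The 1.5-fold threshold applies to ratios of group means and follows the study. Group sizes were 2, and nothing says that libraries came from separate cultures, so p-values measure only the spread between these libraries. An exact permutation test of 2 against 2 cannot go below p = 0.333 and was not run. Peaks were assigned on GENCODE M1 (mm9) in place of the authors' RefSeq, with an overlap of at least 1 bp, in Python 3.11.15 (pandas 2.3.3, numpy 2.4.6, matplotlib 3.10.9). Symbols matched by name for 21149 genes and by synonym for 772. Both steps were tested on simulated data.

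The members and lists, and the lists of ESC, trophectoderm, primitive endoderm, mesoderm and fibroblast markers, were chosen with earlier results of these data known. All 34 members were to be accounted for; those past 1.5-fold with groups that do not overlap, and the 3 most abundant by mean, get full statistics, and of each further list at most 4 such genes are named. Grb10, Mest, Meg3, Impact and the marker genes were given values after these had been seen. Alternatives covered the pseudocount, the filter, scaling, a replicate block, each library left out, and the window, score and overlap of peaks.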

Additional observations from a re-analysis of the deposited data

How the results depend on the processing

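Of 198 values of the 22 tested members under the alternatives, 180 kept their direction and their side of the limma threshold, 5 passed it and 13 changed direction. All 13 came from leaving out 1 library and had small or split values. With 1 library left out, log2 fold changes ran from -0.00097 to 0.48 for Kcnq1ot1, -0.27 to 0.19 for Phlda2, -0.16 to 0.44 for Cd81, -0.26 to 0.16 for Tssc4, -0.63 to 1.25 for Meg3, -0.07 to 0.50 for Snrpn, -0.05 to 0.20 for Igf2r, -2.03 to 1.82 for Mest and -0.14 to 0.0068 for Gnas. The Cbx6 value ran from -1.42 to -0.70. Members called by limma numbered 0 to 4, the 4 being Igf2, Peg10, Sgce and Ndn without shCbx6 replicate 1, and all genes called numbered 19 to 398. In these fits the lone library is assumed to vary like the other group. Members at least 1.5-fold lower numbered 0 to 2. Members higher in both shCbx6 libraries numbered 15 to 19, where 23.8% to 34.5% of all genes were, and those lower in both 5 to 7, where 24.5% to 28.6% were; fewer libraries have to be in order there, and these counts and their alternatives were chosen after seeing the data.

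With a replicate block, the Cbx6 value of -1.06 had an adjusted p of 0.0425, 1 member (Peg10, adjusted p 0.0437) and 388 genes in all were called. Differences between replicates 2 and 1 correlated between the groups at 0.266 over 11592 genes, but with 2 numbers and no label on what they share this is a hint only. A pseudocount of 0.1 gave 17 called genes and no filter 2. Without a filter 14 members were at least 1.5-fold higher. The added ones were Asb4, Dlk1, H19, Magel2, Nap1l5, Osbpl5, Peg12 and Usp29, all with means under 1 FPKM in both groups. The share of all genes was not taken without the filter, so this count has no background. CBX6 replicate 1 kept 15 members with peaks of a score of at least 100 and 9 with peaks that overlap replicate 2. The shares of all genes under these peak settings were not taken. The cause of these differences was not tested. Depth of the libraries is unknown, so values under 1 FPKM have no counting error.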
